A study of Mus musculus with 46 samples.

Results

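The Zfp genes described here are mouse zinc finger genes whose symbol is Zfp followed only by a number. Members had to lie on an autosome and to have a mean summed count (both alleles added) of 100 or more at any of 3 ages. The rule kept 204 genes of the 15499 in the tables, and 91 other autosomal Zfp-numbered genes fell below the threshold at every age. Zfp707, Zfp458 and Zfp759 lay just inside it, with highest age means of 100, 100 and 101 counts. Zfp787, Zfp273 and Zfp768 lay just outside, with 99.1, 97.4 and 93.3. At P5, P15 and in adults 160, 148 and 199 members reached that mean, and 136 did so at every age.

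The measurements come from 46 libraries of female F1 hybrid mice of the C57 and CAST strains, in a pair of crosses labelled F1i and F1r. RNA of the dorsal raphe nucleus, the midbrain region that holds many of the brain's serotonin neurons, was sequenced at the ages labelled P5 (7 F1i and 7 F1r libraries), P15 (7 and 7) and Adult (9 and 9). The labels name no transgene and no treatment, and which strain was the mother in F1i is not given in the sources used here. Each library gave a C57 count and a CAST count for every gene. The adult labels carry 2 numbers with no stated meaning, so some adult libraries may share an animal, and p-values measure the spread between libraries.

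C2H2 zinc fingers are small folds held by a zinc ion that read DNA bases, and proteins with many fingers in a row can bind long and specific sites. Many mammalian Zfp proteins also carry a KRAB box, which recruits the corepressor TRIM28 and, through it, the histone methyltransferase SETDB1 and heterochromatin proteins. KRAB zinc finger proteins are best known for silencing retrotransposons and for keeping imprinted loci methylated. Their genes lie in clusters that arose by local duplication and differ between species and strains. Zfp is also a numbering scheme, and some members have other functions, such as RNA binding or ribosome quality control.

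A KRAB box was found in the translated coding sequence of 108 members, and 96 had none. The members with a KRAB box had a median of 12 C2H2 fingers and those without had 7.5. The longest array was the 40 fingers of Zfp142, and 4 members (Zfp330, Zfp365, Zfp703 and Zfp839) had no finger that matched the C2H2 pattern. Chromosome 7 held 53 members, 34 of them with a KRAB box, chromosome 17 held 22 and 17, and chromosome 6 held 16 and 7.

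Both alleles of a member are counted in the same animals, and the regulatory sequence next to each gene is one part of what they carry. The RefSeq table (GRCm38.p6) held a promoter for 170 of the 204 members, 250 bases before to 50 after the start, on the gene's strand. Promoters are shown for 4 of the members with the largest difference between strain alleles, 2 with CAST and 2 with C57 higher: Zfp141 at chr7:42505704-42506003 (minus strand), Zfp932 at chr5:109996260-109996559 (plus), Zfp422 at chr6:116628652-116628951 (minus) and Zfp28 at chr7:6383068-6383367 (plus). The letters are those of the reference, a C57BL/6J genome, and CAST differences are not shown. Capitals mark matches on either strand to 4 motifs: the CCAAT box with the letters CCAAT, the GC box with GGGCGG, the TATA box with TATAAA, and the core of sites for ETS factors with CGGAAG. No 2 matches in these windows overlap.
Zfp141: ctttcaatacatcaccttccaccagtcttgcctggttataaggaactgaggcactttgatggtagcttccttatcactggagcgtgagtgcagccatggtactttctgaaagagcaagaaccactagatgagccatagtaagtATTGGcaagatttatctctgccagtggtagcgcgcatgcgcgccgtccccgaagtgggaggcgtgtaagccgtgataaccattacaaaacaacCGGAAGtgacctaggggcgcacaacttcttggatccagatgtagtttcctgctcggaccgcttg
Zfp932: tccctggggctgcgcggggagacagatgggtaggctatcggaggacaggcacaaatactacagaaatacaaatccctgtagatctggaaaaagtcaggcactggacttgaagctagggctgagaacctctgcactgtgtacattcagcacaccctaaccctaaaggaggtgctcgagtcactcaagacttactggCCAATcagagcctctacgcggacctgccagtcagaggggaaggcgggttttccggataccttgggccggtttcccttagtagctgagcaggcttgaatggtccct
Zfp422: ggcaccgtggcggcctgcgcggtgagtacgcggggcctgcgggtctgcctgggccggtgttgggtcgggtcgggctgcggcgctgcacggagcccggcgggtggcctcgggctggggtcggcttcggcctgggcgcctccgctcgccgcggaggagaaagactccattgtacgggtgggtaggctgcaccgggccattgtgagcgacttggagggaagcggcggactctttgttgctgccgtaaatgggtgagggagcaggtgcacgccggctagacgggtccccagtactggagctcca
Zfp28: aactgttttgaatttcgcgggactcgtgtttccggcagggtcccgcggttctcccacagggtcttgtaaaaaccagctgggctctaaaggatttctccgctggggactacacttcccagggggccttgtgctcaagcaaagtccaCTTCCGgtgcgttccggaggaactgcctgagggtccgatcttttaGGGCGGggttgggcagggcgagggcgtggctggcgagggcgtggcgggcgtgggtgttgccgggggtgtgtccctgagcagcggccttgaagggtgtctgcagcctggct

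Among these promoters the Zfp422 window had the highest GC content, 71.0%, and none of the searched motifs. Zfp141 (50.3% GC) held an ETS core and a CCAAT box, Zfp932 (54.3%) a CCAAT box, and Zfp28 (62.7%) an ETS core and a GC box. Over the first listed promoter of each gene, a GC box stood in 38.8% of 98 KRAB members and 55.6% of 72 members without KRAB, against 67.5% of 7416 other autosomal genes under the same count rule and 35.9% of all 27025 promoters. An ETS core stood in 38.8%, 30.6%, 31.2% and 17.2% of the same lists. The TATA box was in 3.06% of the KRAB promoters, 11.1% of those without KRAB, 6.09% of the other autosomal genes and 14.2% of all. The median GC content of the promoter was 53.7% with KRAB, 60.7% without and 62.0% for the other autosomal genes. These are matches of letters, not sites shown to be bound.

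Library totals ran from 3692778 to 13085952 counts, and the median was 5926281 at P5, 5044115 at P15 and 10923240 for the adult libraries. Markers of serotonin neurons were present at all ages, with a median summed level of 482 CPM (CPM are counts scaled to a common library total) at P5, 1170 at P15 and 1290 in adults, and the cerebellar markers were at 15.9, 30.6 and 38.8. Libraries differed in how counts depended on the GC content of transcripts. The mean log2 level of GC-rich minus GC-poor genes ranged from 0.43 to 0.67 at P5, from -0.84 to -0.01 at P15 and from -1.03 to 0.25 in adults. F1i P15 replicates 1 and 2 and F1i adult replicate 1_1 had a median correlation of 0.947 to 0.952 with their own group, below 0.96, and results are also given without them where this matters.

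Most members were expressed at a modest level. Their mean count per library had a median of 216 and a range of 61 to 2965, against a median of 362 in the 9460 other autosomal genes under the same rule. Per kilobase of exon the highest mean levels were those of Zfp706 (49.9 CPM per kb), which restrains self-renewal of embryonic stem cells, Zfp428 (36.7), the RNA-binding protein gene Zfp106 (35.4), Zfp941 (34.3), Zfp146 (25.1) and Zfp24 (25.0), which is needed for myelination. Such levels between genes also depend on how many positions of a gene tell the strains apart. Of the 50-base stretches of Zfp106 transcripts 24.7% also occur in transcripts of other genes, 24.6% in Gm26899 alone, so part of its counts is uncertain as to source.

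The first comparison asked whether the CAST and C57 alleles of a member were used equally. The strain effect is the log2 ratio of CAST to C57 counts averaged over both crosses, and calls rest on edgeR's quasi-likelihood test with Benjamini-Hochberg adjusted p below 0.05 across the whole table. At P5 the CAST allele was higher for 58 members and the C57 allele for 54, so that 54.9% were called against 58.4% of all 12070 genes tested and 59.8% of the other autosomal genes under the count rule (30.3% CAST, 29.5% C57). At P15 the counts were 65 and 52 (57.4%, against 58.4% of all and 58.9% of the others, 29.3% CAST and 29.7% C57). In adults they were 67 and 65 (64.7%, against 67.8% and 69.6%, 34.8% CAST and 34.9% C57). The median size of the effect without sign was 0.14 on the log2 scale at P5, 0.18 at P15 and 0.15 in adults, and 0.13, 0.14 and 0.13 in the other genes. The share called was thus near the background at each age.

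Genes with fewer counts are harder to call, so members were also set beside other genes of like count. With a mean under 150 counts, 51.6% of 62 members and 50.7% of 1701 other genes were called at P5, 56.5% and 49.2% at P15, and 61.3% and 61.5% in adults. From 150 to 300 counts the adult values were 63.5% of 74 members and 65.9% of 2350 other genes. From 300 to 600 they were 73.9% of 46 and 69.8% of 2331. At 600 or more, 59.1% of 22 members and 77.1% of 3036 others were called in adults, after 63.6% and 68.9% at P5 and 72.7% and 68.4% at P15.

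The members with a KRAB box had a larger median strain effect than those without at each age. The median size was 0.20 against 0.11 at P5, 0.24 against 0.15 at P15 and 0.18 against 0.12 in adults, with no test between the lists. Effects of 0.5 or more were called for 16 of 108 KRAB members at P5, 19 at P15 and 12 in adults, and for 5, 5 and 3 of the 96 others. These few, named after their values were seen where no rule named them, were Zfp239, Zfp422, Zfp444, Zfp467 and Zfp593 at P5, Zfp213, Zfp236, Zfp239, Zfp422 and Zfp444 at P15, and Zfp236, Zfp422 and Zfp467 in adults. Within count ranges the KRAB median was the larger in all but those of 300 to 600 counts at P5 (0.08 in 23 KRAB members, 0.14 in 23 without) and in adults (0.11 and 0.13), and of 600 or more at P15 (0.14 in 9 and 0.14 in 13). The other autosomal genes had such effects in 9.16%, 10% and 8.94% of cases, between the KRAB members (14.8%, 17.6% and 11.1%) and the rest (5.21%, 5.21% and 3.12%). In 18 autosomal KRAB zinc finger genes with other symbols the median size was 0.24, 0.20 and 0.18. The numbered Zbtb genes, a zinc finger family with a BTB domain in place of KRAB, had medians of 0.12, 0.10 and 0.11 over 27 genes.

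**Figure D1:**
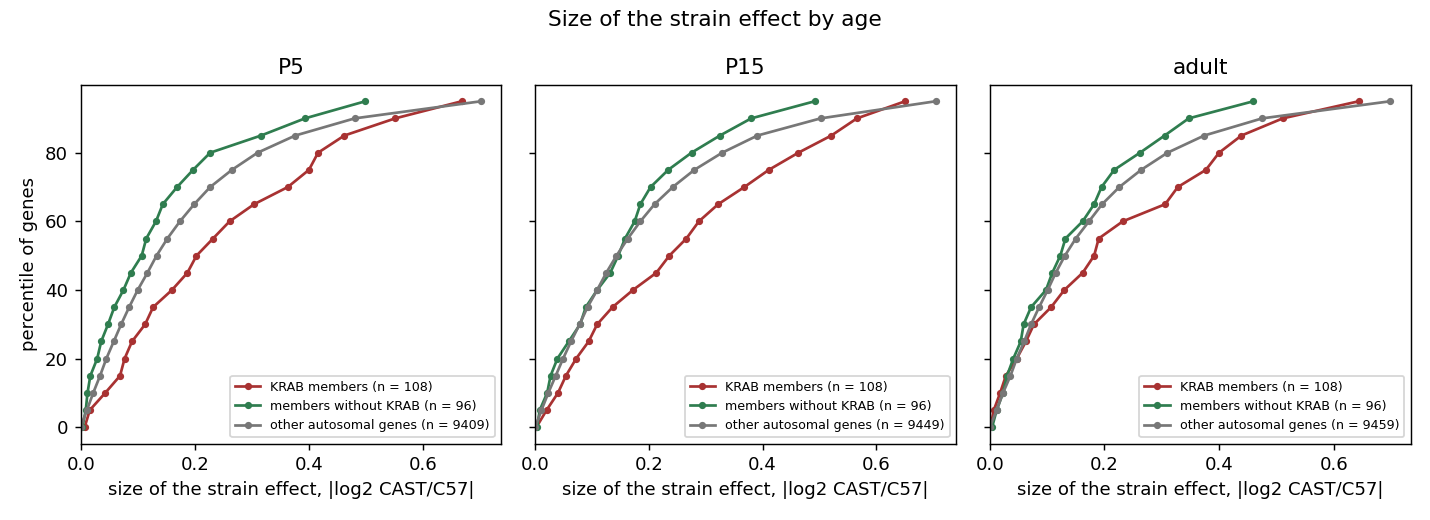
Size of the strain effect at each age: the x axis is the log2 ratio of CAST to C57 without its sign, the y axis the percentile of genes in the list, up to the 95th percentile. The KRAB members lie to the right of the members without KRAB over most of the range, with medians of 0.20, 0.24 and 0.18 against 0.11, 0.15 and 0.12 at P5, P15 and in adults.

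Sequence shared with other genes can move counts between genes. In the 115 members with under 1% of their 50-base stretches in another gene's transcripts, the median size was 0.13, 0.18 and 0.17 by age. In the 31 members with 10% or more it was 0.23, 0.24 and 0.20. Within the members under 1%, KRAB genes again had the larger medians, 0.20, 0.27 and 0.19 over 59 genes, against 0.09, 0.15 and 0.13 over 56 genes without KRAB.

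In 40 members the CAST allele was higher at all 3 ages, and in 34 the C57 allele was, together 36.3% of members and close to the 37.9% of other autosomal genes. Among KRAB members 24 and 25 kept a direction at all ages (45.4%), and among those without KRAB 16 and 9 did (26.0%). No call was made at any age for 38 members (18.6%, against 15.2% of the others). Of 50 pairs of members that are next to each other in the order of coding genes, 24 had both genes called in adults, 11 in the same direction and 13 in opposite directions. Single genes were called in adults in 64.7% of members and 69.6% of the other autosomal genes. Neighbouring pairs of other genes were not counted, so these pairs have no background of their own.

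Zfp141, a KRAB gene on chromosome 7, had the largest CAST excess of all members. Its CAST share of counts was 73.9% to 87.8% at P5 (median 80.1%), 86.7% to 92.9% at P15 (median 89.1%) and 80.4% to 88.2% in adults (median 83.3%), above 50% in 46 of 46 libraries. The library with the fewest counts, 77 at P5, had a 95% Wilson interval of 67.5% to 85.7%. The log2 ratio was 2.02 ± 0.08 (SE) at P5, 3.07 ± 0.06 at P15 and 2.34 ± 0.05 in adults, with edgeR adjusted p of 2.6e-27, 6e-39 and 2.9e-31. Of its 50-base stretches 14.5% also occur in other genes, 13.6% in 2610021A01Rik alone.

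Zfp932, a KRAB gene on chromosome 5, is known with its paralog Gm15446 for repressing endogenous retroviruses. Its CAST share was 64.8% to 83.1% at P5 (median 77.8%), 72.6% to 86.0% at P15 (78.5%) and 70.9% to 82.8% in adults (79.6%). Every library lay above 50%, and the ages overlapped. The log2 ratios were 1.71 ± 0.10, 1.87 ± 0.07 and 1.90 ± 0.06. Its counts are uncertain as to source, since 37.0% of its 50-base stretches are found in other genes, 34.9% in Gm15446.

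The next largest CAST excess was that of Zfp93 and Zfp661, both with a KRAB box. Zfp93 had shares of 45.7% to 71.4% at P5, where 2 of 14 libraries were under 50%, then 51.8% to 69.9% and 53.1% to 70.3%. Its log2 ratio was 0.68 ± 0.12, 0.68 ± 0.09 and 0.90 ± 0.06. Only 35 counts stood behind its shallowest P5 library, whose interval was 30.5% to 61.8%. Zfp661 was above 50% in all libraries, at 62.4% to 73.9%, 54.9% to 66.8% and 50.7% to 72.3%. Its log2 ratios were 0.96 ± 0.06, 0.68 ± 0.05 and 0.60 ± 0.05.

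Zfp239, a gene without KRAB whose protein binds DNA and RNA, had many counts and narrow ranges. Its CAST share was 62.3% to 70.5% at P5, 55% to 63.7% at P15 and 54.1% to 61.6% in adults, above 50% in each library. The other members of the 8 with the largest CAST excess were Zfp444, Zfp945 and Zfp958, with mean log2 ratios over the ages of 0.59, 0.57 and 0.52.

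On the C57 side Zfp422, a gene of 5 fingers without KRAB that is known from developing teeth, had the largest excess. Its CAST share was 22.4% to 31.8% at P5 (median 28.0%), 27.9% to 37.6% at P15 (34.6%) and 30.5% to 44.4% in adults (36.7%). All libraries were under 50%, and the 111 counts of its shallowest adult library gave an interval of 26.1% to 43.5%. The log2 ratio was -1.38 ± 0.06, -0.99 ± 0.06 and -0.74 ± 0.05, with edgeR adjusted p of 6.3e-27, 2e-19 and 9.2e-17. Of its 50-base stretches 16.4% occur in Zfp955b.

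Zfp236, a gene of 30 fingers without KRAB, had a CAST share of 34.2% to 50.7% at P5, 29.8% to 41.7% at P15 and 28.1% to 40.5% in adults. One of its 46 libraries, at P5, was above 50%. The log2 ratios were -0.50 ± 0.06, -0.80 ± 0.06 and -0.93 ± 0.04. Zfp28 and Zfp40, both KRAB genes, had medians of 40.4%, 38.7% and 37.1% and of 37.8%, 41.4% and 38.5% by age. Zfp40 was under 50% in all libraries and Zfp28 in 45 of 46, with 50.0% in the other.

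Zfp57, which keeps imprinted loci methylated, had its C57 allele higher at each age. The CAST share was 33.6% to 46% at P5, 25.0% to 50.0% at P15 and 28.6% to 63.6% in adults, with medians of 39.9%, 40.7% and 39.7%. The log2 ratio was -0.63 ± 0.07, -0.66 ± 0.15 and -0.50 ± 0.12. The wide later ranges go with few counts, a median of 27 at P15 and 29 in adults, and the library of 16 counts had an interval of 18.5% to 61.4%. Zfp445, its partner in imprint maintenance, had ratios of -0.41 ± 0.03, -0.26 ± 0.03 and -0.19 ± 0.03. The rest of the 8 members with the largest C57 excess were Zfp560, Zfp950 and Zfp811, with mean log2 ratios over the ages of -0.55, -0.54 and -0.52.

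**Figure D2:**
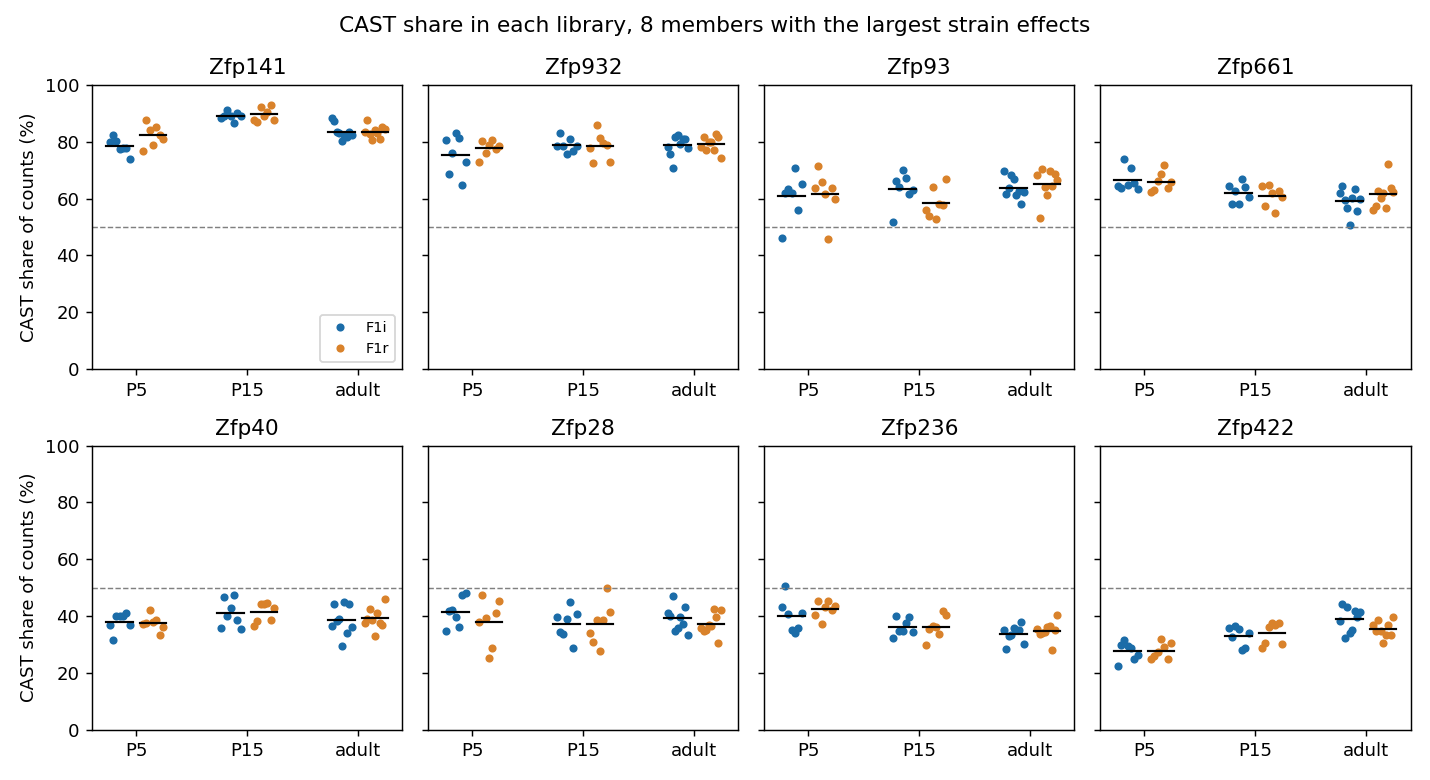
CAST share of counts (y axis, percent) in each library by age (x axis) for the 4 members with the largest CAST excess and the 4 with the largest C57 excess; dots are libraries, coloured by cross, black lines are cross means and the dashed line is 50%. Zfp141 stays between 73.9% and 92.9%, Zfp422 between 22.4% and 44.4%, and the crosses overlap in each panel.

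Among 31 members chosen for known roles, 8 had a higher CAST and 8 a higher C57 allele at P5, 8 and 6 at P15, and 11 and 9 in adults, with 15, 17 and 11 not called. The background of called genes was 59.8%, 58.9% and 69.6% of the other autosomal genes. For Zfp110, which binds the neurotrophin receptor p75, the adult log2 ratio was -0.44 ± 0.04. Zfp568, a repressor of a placental Igf2 transcript, had 0.26 ± 0.06. For Zfp638, a silencer of unintegrated retroviral DNA, the ratio was 0.32 ± 0.06. The ratio of Zfp809, which silences murine leukaemia virus, was -0.02 ± 0.05 and was not called. The ratio of Zfp335, which is needed in neural progenitors, was -0.01 ± 0.06, also not called.

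The second comparison asked whether the allele of 1 parent was used more, which shows as an allele ratio that differs between F1i and F1r. No member was called at any age, 0 of 204 at each age in edgeR's test, and DESeq2 and limma also called 0. The background was 2.71% of all genes tested at P5, 0.742% at P15 and 2.71% in adults, and 0.872%, 0.614% and 0.983% of the other autosomal genes under the count rule. An unadjusted p under 0.05 was reached by 9, 11 and 19 members. The parental effect, taken as 1 / 2 of the log2 ratio in F1i less that in F1r, stayed between -0.24 and 0.30 for all members at P5, between -0.20 and 0.17 at P15 and between -0.16 and 0.19 in adults. The same test gave Zim1, an imprinted KRAB zinc finger gene with another kind of symbol, 3.88 ± 0.05 at P5, 4.86 ± 0.06 at P15 and 5.18 ± 0.05 in adults.

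The third comparison asked whether the strain effect changed with age. From P5 to P15 it moved towards CAST in 13 members and towards C57 in 16, 14.2% of members against 18.7% of all 12430 genes tested and 22.0% of the other autosomal genes (10.7% towards CAST, 11.3% towards C57). From P15 to adult 10 and 17 moved (13.2%, against 15.5% and 18.3%, of which 8.74% and 9.52% by direction). The median size of the change was 0.10 and 0.08, against 0.10 and 0.07 in the other genes.

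Zfp141 moved most at both steps. Its log2 ratio rose by 1.05 ± 0.12 from P5 to P15 and fell by 0.73 ± 0.09 to adulthood, and the P5 and P15 shares overlapped only between 86.7% and 87.8%. The CAST share of Zfp24 was 45.3% to 50.4% at P5, then 39.2% to 44.4% and 40.6% to 44.1%. No P15 or adult library of Zfp24 reached the lowest P5 share. Its ratio fell by 0.39 ± 0.04 (edgeR adjusted p = 1.7e-14), with a later change of 0.02 ± 0.03 that was not called.

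Zfp667, a KRAB gene, had a log2 ratio of 0.01 ± 0.05 at P5 (not called), and its C57 allele was higher from P15 on. The CAST share was 44.6% to 55.7% at P5, 35.8% to 45.2% at P15 and 36.3% to 43.6% in adults. The change from P5 to P15 was -0.55 ± 0.07. For Zfp239 the CAST excess shrank by -0.43 ± 0.05 over that step. Zfp706 had a CAST share of 47.2% to 51.3% at P5, 52.0% to 54.3% at P15 and 51.0% to 56.3% in adults, on 965 to 2873 counts a library. Its ratio rose by 0.17 ± 0.03 and then by 0.10 ± 0.02, and the second rise was not called in the F1i animals alone (0.07 ± 0.04, edgeR adjusted p = 0.24).

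For 2 members, Zfp612 and Zfp933, called effects pointed in opposite directions at different ages (0.98% of members, against 5.12% of the other autosomal genes). The CAST share of Zfp612 was 52.7% to 60.7% at P5, 43.2% to 51.2% at P15 and 47.2% to 52.7% in adults. Its P5 and P15 ranges did not overlap, and the log2 ratio went from 0.29 ± 0.04 to -0.14 ± 0.03 and 0.03 ± 0.02, the last of which was not called. For Zfp933 the share was 47.0% to 58.4%, 48.4% to 58.4% and 36.9% to 54.3%. The ratio of Zfp933 was 0.10 ± 0.05 at P5 (not called), 0.23 ± 0.05 at P15 and -0.33 ± 0.04 in adults.

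From P15 to adult the CAST excess also shrank for Zfp266 and Zfp212, both with a KRAB box. The share of Zfp266 was 58.3% to 60.9% at P15 and 50.7% to 58.9% in adults, a change of the log2 ratio of -0.22 ± 0.04. That of Zfp212 was 48.4% to 62.6% and then 47.5% to 57.9%, a change of -0.35 ± 0.08. In the F1r animals alone the change for Zfp212 was -0.28 ± 0.11 and was not called (edgeR adjusted p = 0.1).

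**Figure D3:**
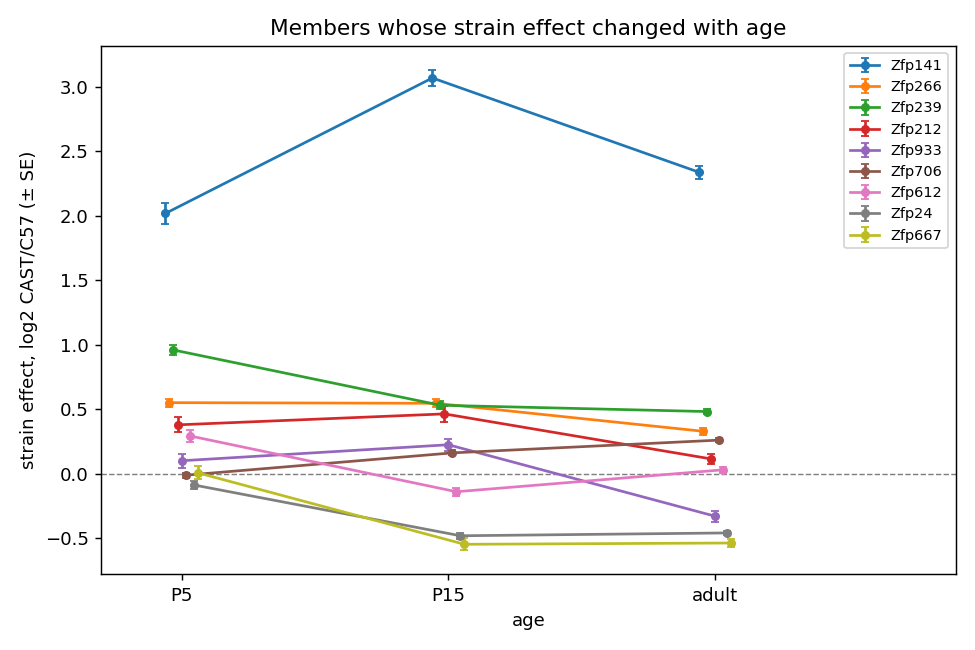
Strain effect (y axis, log2 of CAST over C57 with its SE) at each age (x axis) for the 9 members with the smallest p for a change at either step; lines join the ages of a gene. Zfp141 peaks at P15 at 3.07, Zfp24 and Zfp667 drop between P5 and P15, and Zfp933 and Zfp612 cross 0.

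The fourth comparison asked how the summed level of both alleles changed with age. From P5 to P15 the level of 111 members rose and that of 70 fell, 88.7% against 83.4% of all 13637 genes tested and 87.1% of the other autosomal genes. From P15 to adult 50 rose and 107 fell (77.0%, against 74.7% and 79.2%). Among the other autosomal genes 43.6% rose and 43.5% fell at the first step, and 42.9% rose and 36.3% fell at the second. In these bulk samples fewer cells of a type and less RNA per cell cannot be told apart.

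The KRAB members mostly rose and then fell. From P5 to P15 78 of 108 rose and 18 fell, with a median change of 0.33 on the log2 scale, and from P15 to adult 10 rose and 75 fell, with a median of -0.22. Members without KRAB split the other way, with 33 of 96 up and 52 down (median -0.19), then 40 up and 32 down (median 0.00). A called rise followed by a called fall was seen in 58 KRAB members (53.7%), 17 members without KRAB (17.7%) and 22.2% of the other autosomal genes. In the 18 KRAB zinc finger genes with other symbols, 13 rose and 2 fell, then 0 rose and 13 fell. The mean log2 CPM of the KRAB members was 4.62 to 4.73 in the P5 libraries and 4.83 to 5.08 in the P15 libraries, with no overlap. In adults it was 4.63 to 5.09, and 4.63 to 4.88 without the 1 library that stands apart. Adult libraries differed by the second number of their label: the 6 with number 1 had 4.70 to 5.09 (median 4.87), and the 12 with number 2 or 3 had 4.63 to 4.79 (median 4.70), below every P15 library. With only the number 1 libraries as adults, 16 KRAB members rose and 45 fell from P15 (median -0.10), and with only numbers 2 and 3, 10 rose and 80 fell (median -0.25), alternatives chosen after seeing the data.

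GC content moved with this result. The median GC content of transcripts was 46.2% in KRAB members and 51.1% in those without. Other autosomal genes under 42% GC changed by a median of 0.42 from P5 to P15 and -0.18 from P15 to adult, and those of 55% or more by -0.48 and 0.28. Among genes of 46% to 50% GC the medians at the first step were 0.34 in 33 KRAB members, 0.10 in 14 members without KRAB and 0.14 in 2135 other genes. At the second step they were -0.22, 0.04 and -0.02. Under 42% and from 42% to 46% the first-step KRAB medians were 0.56 and 0.43, against 0.42 and 0.29 in other genes. From 50% to 55% the first-step medians were -0.04 in 19 KRAB members, -0.36 in 23 without and -0.07 in 2682 other genes. At 55% or more they were -0.62 in 4, -0.74 in 33 and -0.48 in 2478. The second-step medians were -0.20, -0.01 and 0.09 from 50% to 55%, and 0.26, 0.27 and 0.28 at 55% or more. With the GC trend of each library removed, an alternative chosen after seeing the data, 59 KRAB members rose and 25 fell (median 0.15), then 17 rose and 63 fell (median -0.14). Members without KRAB then had 28 up and 48 down, and 37 up and 36 down. A called rise followed by a called fall was left in 34.3% of KRAB members, 16.7% of those without and 20.9% of the other genes. In the 18 KRAB zinc finger genes with other symbols this share went from 44.4% to 22.2%. Of these 18, 11 then rose and 3 fell at the first step, and 2 rose and 9 fell at the second. The GC trend of every P5 library (0.43 to 0.67) was above that of every later library, so at the first step the trend of the libraries and the age cannot be told apart. At the second step the trends overlapped, with -0.84 to -0.01 at P15, -1.03 to 0.07 in the adult libraries numbered 1 and -0.16 to 0.25 in those numbered 2 or 3. Without the 2 P15 libraries that stand apart the P15 range was -0.84 to -0.24, below every adult library numbered 2 or 3. Between those libraries the trend and the age cannot be told apart at this step either.

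**Figure D4:**
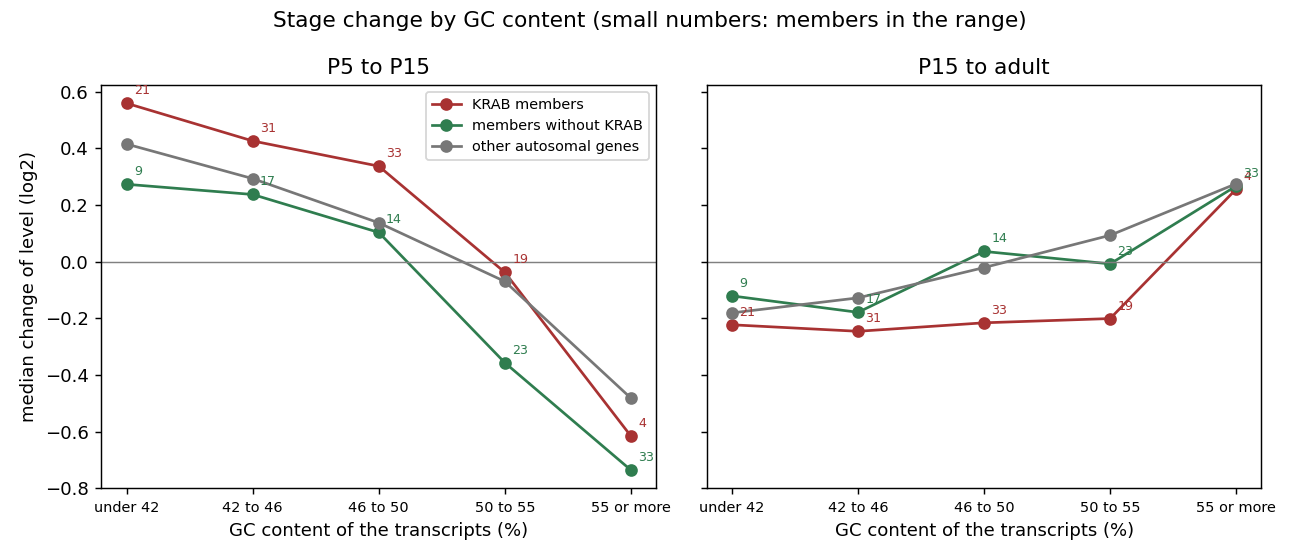
Median change of level (y axis, log2) by GC content of the transcripts (x axis, percent) from P5 to P15 (left) and from P15 to adult (right); small numbers give the members in each range. Medians fall with GC content in the 3 lists at the first step, and in genes of 46% to 50% GC the KRAB members have 0.34 and then -0.22, the other autosomal genes 0.14 and -0.02. From 50% to 55% GC the KRAB members have -0.04 and then -0.20, the other autosomal genes -0.07 and 0.09.

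Cell type markers also moved between the ages. The summed level of 7 immature neuron markers had a median of 5960 CPM at P5, 1210 at P15 and 1070 in adults, and all 7 fell at the first step. That of 7 myelin markers was 2230, 23000 and 8850, and all 7 rose at the first step. The 6 astrocyte markers summed to 3010, 5890 and 6470. Their part in the levels of the members was not tested.

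Zfp612 rose most from P5 to P15. Its level was 38.2 to 48.7 CPM at P5, 111 to 172 at P15 and 102 to 124 in adults, so that P5 did not overlap either later age. The change was 1.78 ± 0.05 (edgeR adjusted p = 5.2e-35), then -0.34 ± 0.04. Zfp141 was at 15.1 to 22.8 CPM, 40.7 to 56.4 and 24.5 to 43.0, a rise of 1.5 ± 0.07 and then a change of -0.69 ± 0.06. Zfp101 was at 4.94 to 9.28 CPM at P5 and 12.4 to 20.8 at P15, and Zfp943 at 14 to 20 and 34.9 to 49.9. Both sets of libraries were apart between those ages, and both genes carry a KRAB box.

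The other members among the 8 with the largest rise were Zfp367, Zfp950, Zfp655 and Zfp975, with log2 changes of 1.29, 1.29, 1.22 and 1.21. Zfp101, Zfp367 and Zfp975 passed the count rule in adults alone, so their low P5 counts did not keep them out. Zfp365, whose product binds the scaffold protein DISC1 and had no finger that matched the C2H2 pattern, rose by 1.15 ± 0.05 and again by 0.22 ± 0.04. Its mean level was 53.3 CPM ± 3.87 (SD, n = 14) at P5, 118 ± 8.50 (n = 14) at P15 and 137 ± 14.2 (n = 18) in adults. Zfp106, known for keeping motor neurons intact, also rose at both steps, from 223 CPM ± 6.93 to 345 ± 25.4 and 502 ± 22.2. Zfp809 rose by 1.08 ± 0.07 and Zfp24 by 0.70 ± 0.05.

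Zfp575, a gene of 6 fingers without KRAB, fell most from P5 to P15. It was admitted by its P5 counts alone, with median counts of 110, 19 and 50 by age. For a gene admitted in this way, lower mean counts at the later ages were fixed by the count rule. The level of Zfp575 was 16.5 to 22.3 CPM at P5, 1.76 to 6.87 at P15 and 1.98 to 7.23 in adults. Its change was -2.39 ± 0.14 and then 0.38 ± 0.15. Zfp57 was at 15 to 23.2 CPM, 3.0 to 7.93 and 2.43 to 5.74, with P5 above all later libraries. This gene was also admitted by its P5 counts alone, with median counts of 119, 27 and 29 by age. Its changes were -1.90 ± 0.11 and -0.55 ± 0.12, the second of which was not called in the F1i animals alone (edgeR adjusted p = 0.11). Zfp428 was at 82.8 to 97.5 CPM, 16.3 to 37.7 and 15.6 to 43.4, and Zfp362 at 35.8 to 46.9, 8.32 to 23.0 and 9.60 to 24.1. For both genes every P5 library was above every later one.

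The rest of the 8 largest falls were those of Zfp697, Zfp282, Zfp579 and Zfp335, with log2 changes of -1.59, -1.56, -1.36 and -1.30. Zfp282 was likewise admitted by its P5 counts alone, with median counts of 194, 59 and 85 by age. Zfp57 and Zfp282 were the only KRAB genes among the 8 largest falls, against 7 of the 8 largest rises and 108 of all 204 members. Among the other autosomal genes 43.6% rose and 43.5% fell at this step. Near those shares, 13 of the 31 members chosen for known roles rose, 13 fell and 5 were not called (median 0.04). Among those that fell, Zfp521, which promotes neural progenitor fate, changed by -1.01 ± 0.06, Zfp536, a repressor of neuronal differentiation, by -1.04 ± 0.10, and Zfp423, which is needed for cerebellar development, by -0.76 ± 0.08.

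From P15 to adult the largest fall was that of Zfp41, from 11.4 to 18.4 CPM at P15 to 4.42 to 6.74 in adults, after 26.1 to 33.1 at P5. The ages did not overlap, and both of its changes, -0.98 ± 0.06 and -1.46 ± 0.06, were falls. Zfp41 too was admitted by its P5 counts alone, with median counts of 171, 79 and 52 by age. Zfp26, Zfp661, Zfp141, Zfp871 and Zfp445, all with KRAB, came next, with changes of -0.78, -0.69, -0.69, -0.67 and -0.67. Zfp445 rose by 0.34 ± 0.05 before that fall, while Zfp57 fell at both steps.

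The members that rose most from P15 to adult had no KRAB box. Zfp395, whose product binds the promoter of the Huntington disease gene, was at 25.5 to 34.7 CPM at P5, 10.6 to 28.7 at P15 and 34.2 to 46.4 in adults. Its changes were -0.59 ± 0.09 and 0.99 ± 0.08. Zfp553, Zfp687, Zfp423 and Zfp536 likewise fell and then rose, the last step by 0.83, 0.80, 0.73 and 0.58. Zfp622, needed for maturation of the large ribosomal subunit, rose by 0.24 ± 0.06 and 0.65 ± 0.06, the first of which was not called with the GC trend removed (0.01 ± 0.08). Zfp598, a ubiquitin ligase of ribosome quality control, changed by -0.86 ± 0.07 and 0.52 ± 0.06.

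**Figure D5:**
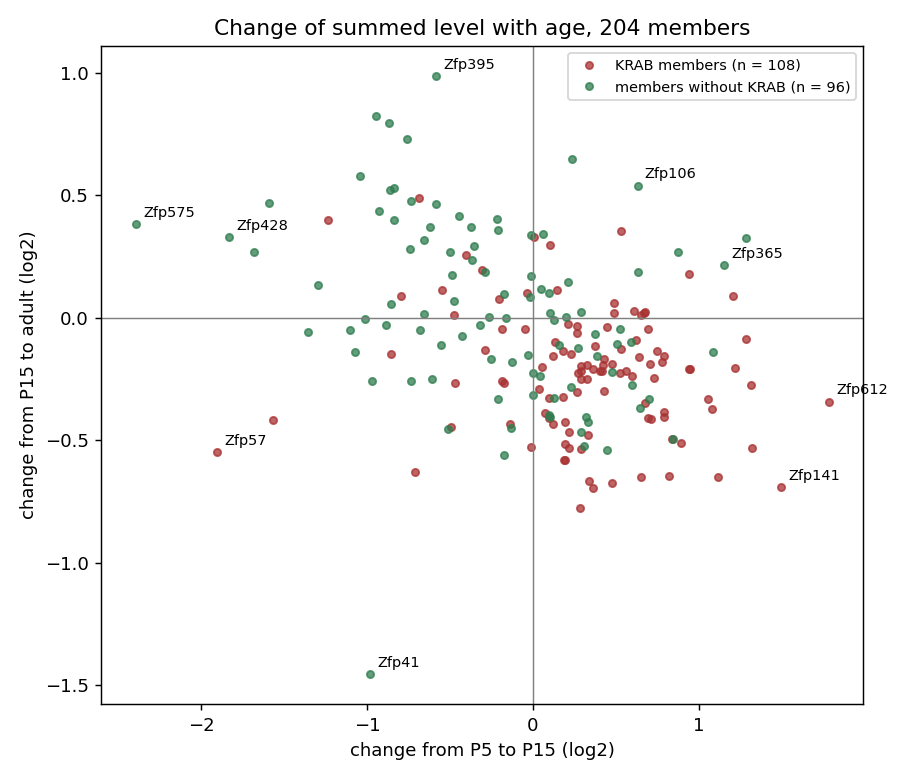
Change of the summed level from P5 to P15 (x axis, log2) and from P15 to adult (y axis, log2) for all members, coloured by the presence of a KRAB box. Red points gather at the lower right, where 58 of 108 KRAB members had a called rise and then a called fall; Zfp575 lies at -2.39 on the x axis and Zfp612 at 1.78.

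The corepressor machinery that KRAB boxes recruit was described from a list of 31 names, of which 27 matched. Of these 4 rose and 18 fell from P5 to P15 (median -0.56), where 43.6% of the other autosomal genes rose and 43.5% fell. At the second step 14 rose and 7 fell (median 0.11), beside 42.9% and 36.3% of those genes. Trim28, the scaffold that binds the KRAB box, went from 160 CPM ± 5.96 (SD, n = 14) to 69.3 ± 12.2 (n = 14) and 96.8 ± 5.13 (n = 18), a change of -1.21 ± 0.06 and then 0.48 ± 0.05. Setdb1, the histone methyltransferase, changed by -0.72 ± 0.04 and then by 0.00 ± 0.04. The 10 numbered Zkscan genes, which carry a SCAN domain and often a KRAB box, had 7 up and 2 down and then 0 up and 7 down. The 27 Zbtb genes had 9 up and 13 down and then 12 up and 7 down, beside the same shares of the other genes.

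Single pairs of members next to each other, named after their values were seen, are given as values. Zfp942 and Zfp943, neighbours on chromosome 17, rose by 1.06 and 1.32. Zfp738 and Zfp65, neighbours on chromosome 13, rose by 0.82 and 0.56, and their adult strain effects were -0.57 and 0.15.

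The last comparison asked whether the summed level differed between F1i and F1r. No member was called at P5, P15 or in adults, 0 of 204 each in edgeR's test, against 1.17%, 0.0467% and 0.111% of all genes tested and 1.4%, 0.0634% and 0.116% of the other autosomal genes. An unadjusted p under 0.05 was reached by 23, 0 and 16 members. DESeq2 called 0 at P5 and P15 and 1 in adults, Zfp641, named because it was the only call, at 0.24 ± 0.06. The differences between crosses stayed between -0.28 and 0.22 for all members at P5, -0.22 and 0.19 at P15 and -0.21 and 0.44 in adults.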

How the data were processed

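The values are counts of reads per gene and strain allele, C57 and CAST, as deposited by the authors for 46 libraries. Per the labels' protocols, total RNA was extracted with a Qiagen RNeasy kit, libraries were made with Illumina TruSeq, and reads were 50 bp single-end. Per the submitters' processing notes, Novoalign and the mm9 build were used. How reads were assigned to alleles, the strand setting and the treatment of reads matching several genes are not given in the sources used here. Allele counts cover only reads that tell the strains apart, so totals are below sequencing depth.

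All 92 count columns were matched to labels. Strain, parental, age and cross effects were fitted across all genes with edgeR 4.0.16 (quasi-likelihood test, Benjamini-Hochberg adjustment, R 4.3.3), using allele models where the summed count of a gene averaged at least 20. Alternatives used DESeq2 1.42.0 and limma 3.58.1 (pseudocount 0.5). On simulated counts for the adult strain effect (12675 genes), 96% of changes of 0.5 and 100% of changes of 1 on the log2 scale were recovered, with 4.85% false calls. For the change from P5 to P15 (12144 genes) these were 98%, 100% and 1.98%. The simulated columns were drawn independently, with the same spread for every gene and no GC trend. These rates are therefore not the error rates of the real libraries. Wilson intervals are at 95% and cover counting error only. KRAB boxes were found with pyhmmer 0.12.3 from a profile of 63 sequences (E-value below 0.0001).

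Named genes are the 8 with the largest strain effect in each direction among those called at all 3 ages, the 6 with the smallest p for a change of it at each step, and those called in opposite directions. For age they are the 8 largest changes in each direction from P5 to P15 and the 6 from P15 to adult, at 10 CPM or more at either age, and genes on a list of known roles. The members and lists were chosen with earlier results of these data known. One gene is not reported here.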

Additional observations from a re-analysis of the deposited data

Results flagged for a closer look

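In 102 groups of libraries checked for CAST share and 90 for CPM, a single library lay far from the rest of its group in 12 cases, where chance alone gives about 1 group in 20. For CAST share these were Zfp661 at 72.3% in F1r adult replicate 7_1 (others 55.8% to 63.8%), Zfp239 at 54.1% in F1r adult replicate 5_2 (56.6% to 59.2%), and Zfp706 at 51.0% in F1i adult replicate 1_2 (53.4% to 55.5%). Zfp706 was also low at 47.2% in F1i P5 replicate 4 (49.4% to 50.7%), Zfp933 at 48.4% in F1r P15 replicate 4 (52.7% to 55.5%), and Zfp266 was high at 65.3% in F1r P5 replicate 5 (56.7% to 59.6%).

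For level, 5 of 6 cases were in F1i adult replicate 1_1, which stands apart from its group. It had 43.0 CPM for Zfp141 (others 24.5 to 32.4), 18.9 for Zfp101 (9.12 to 12.7), 56.5 for Zfp943 (28.0 to 41.4), 59.3 for Zfp26 (35.4 to 46.2) and 32.2 for Zfp661 (24.0 to 27.7). The other case was Zfp141 at 22.8 CPM in F1i P5 replicate 5 (15.1 to 17.7).

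The strain effect differed between ages, by a test of the difference itself in edgeR, for the members named in the report. From P5 to P15 the log2 changes were -0.39 for Zfp24, -0.43 for Zfp239, 1.05 for Zfp141, -0.55 for Zfp667, -0.43 for Zfp612 and 0.17 for Zfp706. From P15 to adult they were -0.55 for Zfp933, -0.73 for Zfp141, -0.22 for Zfp266, 0.17 for Zfp612, -0.35 for Zfp212 and 0.10 for Zfp706. In the F1i animals alone the change for Zfp612 was 0.12 ± 0.05 and was not called (edgeR adjusted p = 0.19). The like limits for Zfp212 and Zfp706 are given above.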

How the results depend on the processing

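Of 82 alternative counts of called members, 72 stayed within 1.5 times the reported count. DESeq2 called 70 members for the strain effect at P5 against 112, and the cause was not tested. In 1 cross alone, with fewer samples, the change of strain effect from P5 to P15 was called for 12 members (F1i) and 14 (F1r) against 29, and from P15 to adult for 5 (Zfp933, Zfp212, Zfp422, Zfp141 and Zfp266) and 10 against 27. For the cross effect in adults, DESeq2 called 1 member (Zfp641) and the adult counts summed over the first label number 3 (Zfp445, Zfp641 and Zfp950), against 0; genes named here outside the rule were chosen after their values were seen. With the GC trend removed, the change from P5 to P15 reversed to 0.15 for Zfp64, -0.22 for Zfp148, -0.20 for Zfp638 and -0.19 for Zfp706. For Zfp128 (-0.01 ± 0.06) and Zfp292 (-0.14 ± 0.07) the sign changed, but neither was then called (edgeR adjusted p = 0.92 and 0.057). At P5 and P15 the replicate numbers did not pair the crosses: the pairwise correlation ran from -0.094 to 0.087 at P5 and from -0.415 to 0.754 at P15, and 2 of 7 and 1 of 7 libraries correlated best with their own number. In adults the second label number, whose meaning is not given, went with the libraries' deviations, with a median correlation of 0.317 between crosses (19 of 27 pairs over 0.1) and 0.384 within F1i (7 of 9) and 0.162 within F1r (5 of 9). As not all pairs did, the numbers are not taken as a pairing. From P15 to adult 120 members were called with only the number 1 libraries as adults and 159 with numbers 2 and 3, against 157, and Zfp451 turned to 0.01 with number 1 alone. With a replicate block, 1 member was called for the parental effect at P5 (Zfp536, -0.19), 1 for the cross effect at P5 (Zfp60) and 1 in adults (Zfp641), against 0, and 184 against 181 for the change from P5 to P15. Without the 3 libraries that stand apart, 113 members were called for the strain effect at P15 and 130 in adults. Low counts limit the precision of shares for members such as Zfp57 and Zfp93.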
